A study of Mus musculus with 75 samples.

Results

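Hepatic RNA of 8 metal-handling genes was followed in mouse livers after maternal exposure to tributyltin (TBT), an organotin compound: the metallothioneins Mt1 and Mt2, the ZIP importers Slc39a14, Slc39a4 and Slc39a5, the ZnT family exporters Slc30a1 and Slc30a10, and the regulator Mtf1. These 8 of 55536 genes in the count table were chosen by gene symbol, with earlier results of these data known. In particular, Mt1 and Mt2 had stood out in vehicle livers of 10 against 5 months, so that contrast is given here as a description with no test. All 8 passed the filter on low counts in every comparison.

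The mice were male wild-type C57Bl/6, and liver RNA of 75 libraries was sequenced as stranded total RNA. TBT livers came from offspring exposed through their mothers, whose drinking water delivered 0.5 mg per kg of body weight a day (3.07 µM) up to weaning, so all TBT groups share 1 early exposure and differ in age, in risk label or in tissue. At 3 weeks there were 7 vehicle and 8 TBT samples. The 5-month livers comprised 8 vehicle samples, and 16 TBT samples labelled low risk and 10 labelled high risk. At 10 months there were 6 vehicle samples, 5 low-risk TBT samples, 5 samples of uninvolved liver from high-risk TBT mice and 7 tumors. How risk was assigned at 5 months is not stated in the labels, and neither is how tumors were dissected.

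Metallothioneins are small, cysteine-rich proteins that bind zinc, copper and cadmium in the cytosol, and their genes respond to metals, glucocorticoids and inflammation. ZIP proteins (Slc39 family) carry zinc and other metals into the cytosol, and ZnT proteins (Slc30 family) carry them out of it or into vesicles. The zinc sensor MTF-1, the product of Mtf1, enters the nucleus when zinc is high and binds metal response elements in the promoters of metallothionein genes and of Slc30a1. In the liver, zinc import and metallothionein rise during the acute-phase response.

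Mt2 and Mt1 lie next to each other on the plus strand of chromosome 8 (GRCm38 chr8:94172664-94173568 and chr8:94179082-94180327), with 5513 bases between them. Their promoters are shown because metal response elements are the known link between zinc and metallothionein genes. Those of the exporters are shown beside them, Slc30a1 as a known target and Slc30a10 as the other exporter, with no such link assumed. Each run covers the 250 bases before the RefSeq start site (GRCm38.p6, plus strand), and capitals mark matches of the element's core, searched as TGCACNC and TGCGCNC on both strands. A match on the minus strand appears as its reverse complement, and overlapping matches were both counted.
Mt1, chr8:94178839-94179088: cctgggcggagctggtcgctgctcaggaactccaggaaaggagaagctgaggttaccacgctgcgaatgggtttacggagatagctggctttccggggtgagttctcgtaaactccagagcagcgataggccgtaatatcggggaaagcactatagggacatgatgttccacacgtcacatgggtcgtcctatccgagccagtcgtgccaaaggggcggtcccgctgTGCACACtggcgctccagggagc
Mt1, first 29 bases from the start, chr8:94179089-94179117: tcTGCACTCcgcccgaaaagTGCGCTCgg
Mt2, chr8:94172368-94172617: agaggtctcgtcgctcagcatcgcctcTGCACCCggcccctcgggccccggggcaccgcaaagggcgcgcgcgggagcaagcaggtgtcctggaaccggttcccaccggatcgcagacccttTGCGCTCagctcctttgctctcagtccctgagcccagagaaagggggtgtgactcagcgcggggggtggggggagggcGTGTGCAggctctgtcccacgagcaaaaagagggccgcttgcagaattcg
Slc30a1, chr1:191906531-191906780: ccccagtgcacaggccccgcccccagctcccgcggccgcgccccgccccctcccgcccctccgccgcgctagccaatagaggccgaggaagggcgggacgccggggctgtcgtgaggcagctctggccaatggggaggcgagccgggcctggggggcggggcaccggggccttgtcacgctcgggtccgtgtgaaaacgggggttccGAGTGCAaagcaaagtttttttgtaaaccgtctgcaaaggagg
Slc30a10, chr1:185454598-185454847: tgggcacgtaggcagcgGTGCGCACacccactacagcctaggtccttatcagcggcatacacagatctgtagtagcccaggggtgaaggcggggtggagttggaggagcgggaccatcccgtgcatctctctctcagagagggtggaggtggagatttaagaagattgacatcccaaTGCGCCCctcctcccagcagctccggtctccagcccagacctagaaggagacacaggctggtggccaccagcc
The full 300-base RefSeq window also takes in the first bases after the annotated start. In this window Mt2 held 4 matches, Mt1 and Slc30a10 held 3 each, and Slc30a1 held 2. Whether the annotated starts are those used in liver was not tested. The capitals run into each other at positions -233 and -232 of Slc30a10, where a pair of matches on opposite strands overlap. Of 32817 windows of this length in the RefSeq table, 25.7% held at least 1 match, 7.12% at least 2 and 1.97% at least 3. Slc39a5 has a pair of start sites with 1 and 0 matches, and Mtf1 had 0. RefSeq promoters were matched for 6 of the 8 genes, not for Slc39a14 and Slc39a4. A match describes letters and not a bound site.

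Library totals ran from 2.83 to 45.4 M counts. Technical limits were passed by 6 libraries: 1 of 5-month vehicles with 2.83 M counts, 1 of 3-week vehicles, 1 low-risk and 2 high-risk of 5 months, and the single vehicle library labelled as a tumor, which entered no comparison. At 5 months, 1 vehicle, 10 low-risk and 7 high-risk libraries came from a second sequencing batch. The libraries of uninvolved livers 3 and 6 were nearer to each other (chi-square 3.48 per degree of freedom over genes) than any other pair within a group (13.5 for the next) and were counted as 1 sample. Nothing in the labels states that replicates were separate litters, so p-values measure the spread between these samples. Hepatocyte markers were the most abundant cell type list in every group (6 genes, summed medians between 85120 and 170600 library-scaled counts, CPM), and none of the 6 was at 0.

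In young livers the metallothioneins were the most abundant RNAs of the 8 per length. In aged vehicle livers Mt1 lay in the middle of the 8 and Mt2 was the lowest. Per kilobase of the principal transcript, the 3-week vehicle medians were 779.5 CPM for Mt1, 162.4 for Mt2, 63.0 for Slc39a14, 26.2 for Slc39a4, 10.36 for Slc30a10, 9.48 for Slc30a1, 3.25 for Slc39a5 and 2.26 for Mtf1. In 10-month vehicles the same scale put Slc39a14 first at 40.8, followed by Slc30a10 at 13.6, Slc30a1 at 10.1, Mt1 at 9.35, Slc39a4 at 5.11, Mtf1 at 2.29, Slc39a5 at 0.649 and Mt2 at 0.605. All levels below are CPM scaled by TMM and not divided by length, and differences are log2 fold changes with their standard error (SE).

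**Figure D1:**
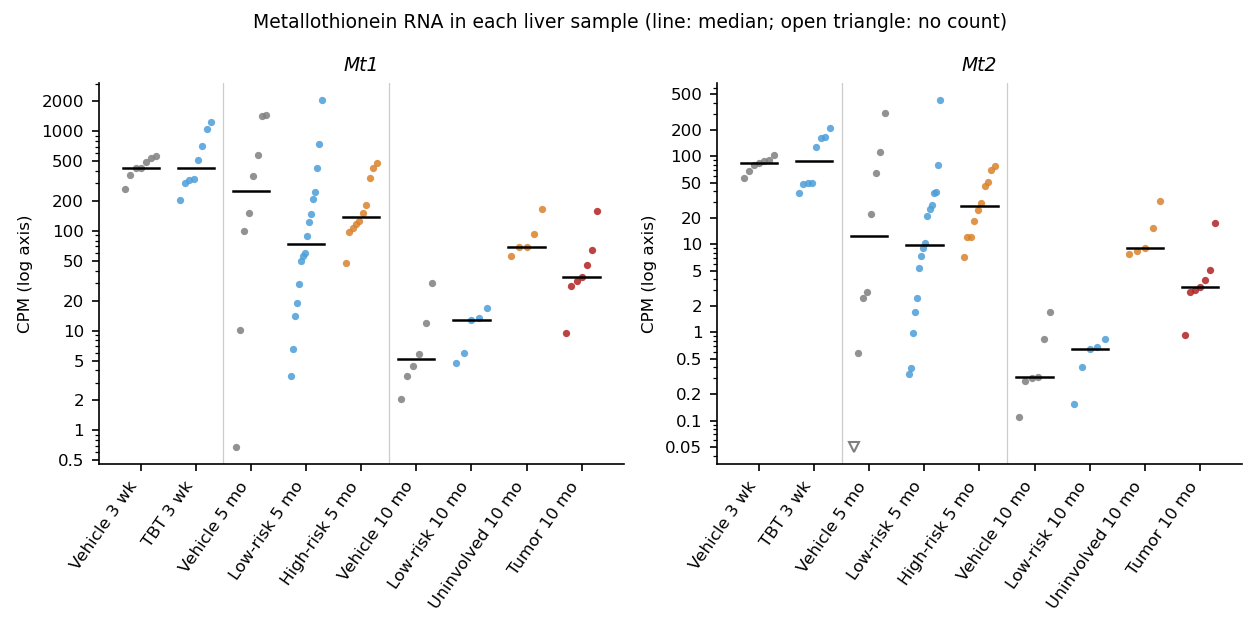
Mt1 and Mt2 RNA (TMM-scaled CPM, log axis) in each sample, by age and group, with the median as a black line. Vehicles are grey, 3-week and low-risk TBT livers blue, high-risk and uninvolved livers orange and tumors red, and the open triangle is the 5-month vehicle sample with 0 Mt2 counts. The 5-month groups spread over orders of magnitude, and at 10 months the uninvolved samples sit above every vehicle and low-risk sample.

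Differences in these genes were called between TBT livers of different risk label, and none between low-risk TBT and vehicle livers of 5 or 10 months. By edgeR's quasi-likelihood test with Benjamini-Hochberg adjustment over all genes tested (calls at adjusted p under 0.05), 4 of the 8 separated 5-month livers of high from those of low risk (1 higher, 3 lower), where 38.9% of 14773 genes were called. At 10 months 7 of 8 were called in uninvolved high-risk against low-risk livers (4 higher, 3 lower), beside 52.4% of 16338 genes. Against vehicles the counts were 3 of 8 for high-risk livers at 5 months (1 higher, 2 lower; background 15.8%), 6 of 8 for uninvolved livers at 10 months (3 higher, 3 lower; background 57.7%) and 5 of 8 for tumors (3 higher, 2 lower; background 45.9%). The last 2 counts include Mt1 and Mt2, whose low level in these vehicles was known when they were chosen, so they are no support for those genes. With backgrounds this high, the counts alone set these genes little apart from other genes.

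Low-risk TBT livers showed no called difference from vehicles at either age. At 3 weeks 0 of 8 genes were called in TBT against vehicle livers (background 0% of 14050 genes), with 0 at an unadjusted p under 0.05 (474 of all genes) and 0 by DESeq2. At 5 months 0 of 8 were called in low-risk against vehicle livers (background 0%), and at 10 months again 0 of 8 (background 0%), in both cases with 0 at an unadjusted p under 0.05 and 0 by DESeq2. Of all genes, 934 of 14773 at 5 months and 688 of 16338 at 10 months had an unadjusted p under 0.05. High-risk and low-risk livers were each set against the same vehicles, so those values are given side by side only. The vehicles of 5 and 10 months were the arms of the contrast that had named Mt1 and Mt2. For those genes the counts against these vehicles are descriptions.

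Scaling shifts part of this picture. When libraries were scaled to their totals instead of by TMM, the median of all genes moved up by 0.31 (log2) between the risk groups at 5 months (high minus low), 0.37 in high-risk against vehicle, 0.25 in uninvolved against low-risk, 0.32 in uninvolved against vehicle and 0.29 in tumor against vehicle, and moved down by 0.17 in 5-month against 3-week vehicles. The splits of members called became 1 higher and 1 lower at 5 months against low-risk, 1 and 1 against vehicle, 5 and 1 in uninvolved against low-risk, 5 and 1 in uninvolved against vehicle, and 4 and 1 in tumor against vehicle. No called direction turned. In these comparisons the calls lost were those of Slc39a14 and Slc30a1 and those gained were of Mtf1 and Slc39a5, while Mt1, Mt2, Slc39a4 and Slc30a10 were called under both scalings wherever they were called by TMM. In low-risk livers of 5 months against TBT livers of 3 weeks the single higher call, of Mtf1, was lost.

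**Figure D2:**
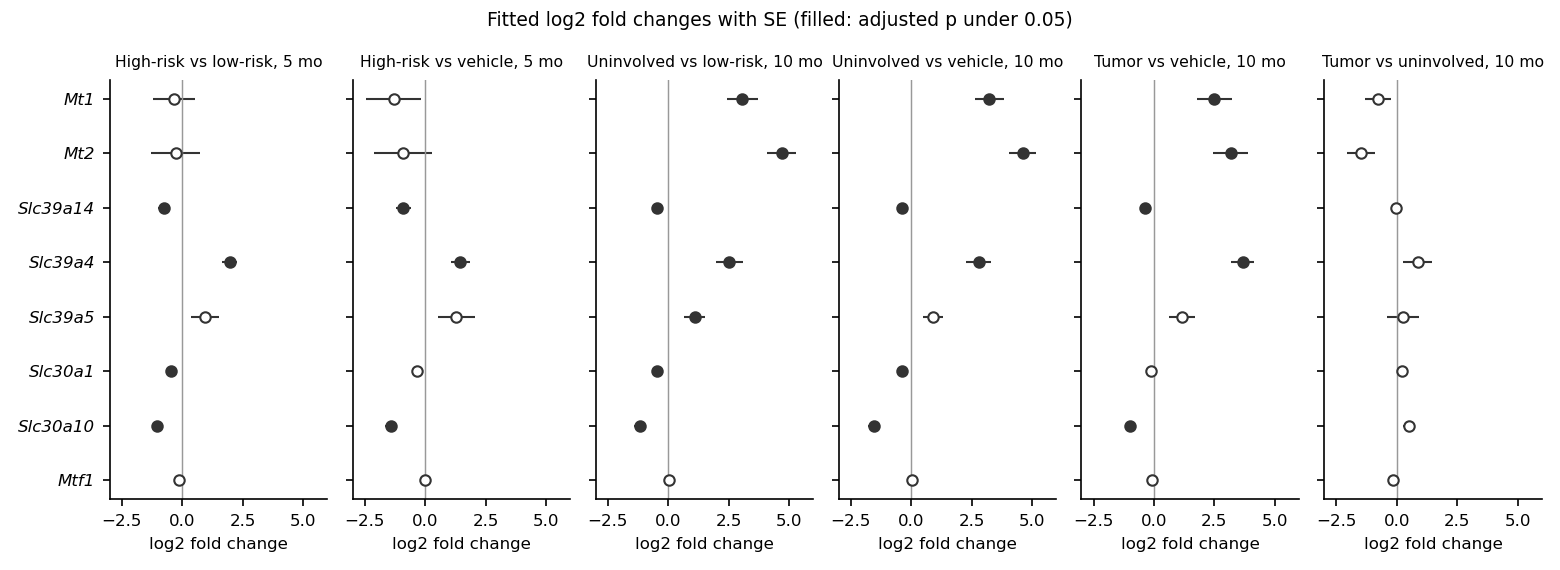
Fitted log2 fold change of the 8 genes in each comparison, with bars for the SE and filled points for adjusted p under 0.05. Mt1 and Mt2 are far to the right in the uninvolved and tumor comparisons with vehicles, Slc39a4 is to the right wherever high-risk, uninvolved or tumor tissue is compared with low-risk or vehicle liver, and Slc30a10 is to the left in the same comparisons. For Mt1 and Mt2 against 10-month vehicles the filled points are descriptions, since those vehicles were part of the choice of these genes.

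Mt1 (ENSMUSG00000031765) and Mt2 (ENSMUSG00000031762) were high in 3-week livers. Mt1 in vehicles ran from 261.8 through a median of 427.9 to 566.7 CPM, and in TBT livers from 204.2 through 422.4 to 1247 CPM. Mt2 ran from 56.2 through 83.0 to 103.4 CPM in vehicles and from 38.4 through 87.7 to 207.9 CPM in TBT livers. The TBT range was the wider for both genes (6.11-fold for Mt1 and 5.41-fold for Mt2, beside 2.16-fold and 1.84-fold) and covered the vehicle range, and neither differed (Mt1 0.41, SE 0.35; Mt2 0.38, SE 0.36; adjusted p = 0.999 for both).

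At 5 months the metallothioneins were among the most variable RNAs of the liver. Of 9511 genes whose mean reached 5 CPM, ranked by the SD of log2(CPM + 1) within the 5-month vehicles, Mt1 was number 2 (SD 3.43) and Mt2 number 5 (SD 3.08). The 8 vehicle samples held 0.680, 10.2, 100.5, 149.5, 355.1, 577, 1404 and 1434 CPM of Mt1. The lowest was the library with 2.83 M counts, in which Mt1 had 2 counts and Mt2 had 0, a count that allows up to 1.02 CPM. The other vehicles still spanned from 10.2 to 1434 CPM, but the ranks include that library. Wide spread was not limited to 5 months. Mt1 ranked 23 in vehicles, 45 in tumors, 82 in low-risk and 361 in uninvolved livers of 10 months, and 81 in TBT and 750 in vehicle livers of 3 weeks. Mt2 ranked 236, 96, 1026, 143, 67 and 1814 in the same order.

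Low-risk livers of 5 months were scattered too, from 3.52 through a median of 74.2 to 2034 CPM of Mt1, a span of 578-fold, and from 0.338 through 9.80 to 429.2 CPM of Mt2. In that group Mt1 and Mt2 ranked 11 and 12 of 9511 by SD. High-risk livers lay in a narrower band, from 47.6 through 138.5 to 482.2 CPM of Mt1 and from 7.10 through 27.2 to 78.2 CPM of Mt2, and ranked 136 and 114. All 10 high-risk samples fell inside the low-risk range. Neither gene was called between the risk groups (Mt1 -0.35, SE 0.88, adjusted p = 0.78; Mt2 -0.27, SE 1.01, adjusted p = 0.857), and the sign differed between the batches, at 0.93 for Mt1 and 1.745 for Mt2 in batch 1 and at -1.05 and -1.35 in batch 2. Mt2 also changed sign, to 0.08, with library totals. The 5-month vehicles were 1 arm of the contrast that had named Mt1 and Mt2, so values against them are descriptions with no test. Against these vehicles Mt1 was at -1.31 in high-risk (SE 1.14) and at -0.95 in low-risk livers (SE 1.16), and in batch 1 alone at -0.97 and -1.90. The difference in spread was not tested.

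At 10 months uninvolved liver of high-risk mice held more metallothionein RNA than vehicle and low-risk livers. Mt1 in the 5 uninvolved samples was 55.9, 68.5, 68.5, 93.2 and 167.4 CPM. In the 5 low-risk samples it was 4.78, 5.95, 12.7, 13.4 and 16.8 CPM, and in the 6 vehicles it ran from 2.07 through 5.13 to 29.8 CPM. Every uninvolved sample was above every low-risk and every vehicle sample. The log2 fold change was 3.06 against low-risk (SE 0.64, adjusted p = 0.00127). The vehicles of 10 months were 1 arm of the contrast that had named Mt1 and Mt2, so differences of these genes from them are descriptions with no test, and for Mt1 the value was 3.23 (SE 0.60).

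Mt2 separated further. The uninvolved samples held 7.75, 8.48, 9.08, 15.5 and 31.3 CPM, against 0.156, 0.403, 0.652, 0.677 and 0.843 CPM in the low-risk samples and 0.109 through 0.309 to 1.69 CPM in vehicles. The groups again did not overlap, with 4.69 against low-risk (SE 0.59, adjusted p = 1.55e-05) and, as a description, 4.62 against vehicle (SE 0.55). With the library labelled as a vehicle tumor counted among the vehicles, the second value was 2.85. Low counts limit the reference here, since Mt2 had between 3 and 40 counts in a vehicle library and between 4 and 25 in a low-risk library.

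Library quality and the cell type lists moved with this comparison. The uninvolved libraries held 4.202 to 5.85% mitochondrial counts, beside 2.94 to 3.08% in low-risk and 3.14 to 3.83% in vehicle libraries, and 24676 to 28715 genes with a count, beside at most 22578 and 22006. Their totals were 34.8 to 44.6 M, beside at most 33.5 and 31.0 M, so none of these ranges overlapped. Against low-risk livers 5 of 5 cholangiocyte markers rose and 0 fell, 4 of 6 stellate cell and fibroblast markers rose and 1 fell, and 4 of 6 hepatocyte markers fell and 0 rose. Summed cholangiocyte markers were 104.6 to 209 CPM in uninvolved, 37.2 to 59.8 in low-risk and 38.0 to 54.0 CPM in vehicle livers. Summed stellate markers were 359.7 to 510.9, 222.6 to 311.5 and 156.8 to 297.2 CPM, and summed hepatocyte markers 65880 to 94550, 107700 to 118000 and 113100 to 140700 CPM, in the same order. No marker of these lists was at 0 in any of the 3 groups. The part of library quality and of these markers in the metallothionein difference, and in those of the transporters below, was not tested. In bulk liver, fewer cells of a type and less RNA per cell cannot be told apart.

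Tumors held an intermediate amount. Mt1 in the 7 tumors ran from 9.40 through 34.4 to 159.9 CPM and Mt2 from 0.930 through 3.26 to 17.5 CPM. Described against the same 10-month vehicles, with no test, Mt1 was at 2.49 (SE 0.72) and Mt2 at 3.18 (SE 0.72). For Mt1 5 of 7 tumors were above all vehicles, and for Mt2 6 of 7. Leaving out tumor 7, the highest for both genes, brought Mt2 to 2.48, and adding the vehicle tumor library to the vehicles brought it to 1.31. In this comparison 5 of 5 cholangiocyte markers rose and 0 fell (summed 145.1 to 768.1 CPM, beside 38.0 to 54.0 in vehicles), 3 of 6 stellate markers rose and 1 fell (280.4 to 535.1, beside 156.8 to 297.2 CPM), 5 of 6 hepatocyte markers fell and 0 rose (66780 to 110800, beside 113100 to 140700 CPM), and 4 of 5 erythroid markers fell and 0 rose (146.2 to 266.2, beside 225.2 to 420 CPM). No marker of these 4 lists was at 0, and their part in the differences of tumors from vehicles was not tested.

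Tumors were set against uninvolved liver with 0 of 8 genes called (background 18.1% of 16362 genes), with 1, Mt2, at an unadjusted p under 0.05 and 0 by DESeq2. Of all 16362 genes, 5708 had an unadjusted p under 0.05, so 1 of 8 does not stand out. The fitted differences were -0.79 for Mt1 (SE 0.54, adjusted p = 0.316) and -1.49 for Mt2 (SE 0.59, adjusted p = 0.0926). Tumor libraries held 2.64 to 3.46% mitochondrial counts and 22609 to 23868 genes with a count, both ranges below those of uninvolved liver, and their part in the difference was not tested. The titles give 6 tumors and 6 uninvolved livers the same animal code, taken here as the same mouse although the labels do not state it, and in these pairs tumor was the lower side for both genes in 6 of 6 mice. With the mouse as a block, Mt1 fell by 1.11 (SE 0.26, adjusted p = 0.0322) and Mt2 by 1.65 (SE 0.27, adjusted p = 0.0114). The pairing was not borne out by a check across all genes, given with the processing. Without the block but also without tumor 7, the values were -1.39 (adjusted p = 0.0321) and -2.21 (adjusted p = 0.00773). Leaving out mice 3 and 6, whose uninvolved libraries nearly share their counts, the 4 remaining pairs gave -0.81 for Mt1 (adjusted p = 0.0415) and -1.44 for Mt2 (adjusted p = 0.0185).

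By mouse, the tumor to uninvolved differences of Mt1 were -0.58, -1.02, -1.14, -2.54, -0.07 and -1.44 for mice 1, 3, 5, 6, 7 and 12 (log2 of the CPM ratio). Those of Mt2 were -1.10, -1.28, -1.48, -3.12, -0.84 and -2.42. Mouse 6 had the steepest fall and mouse 7 the smallest for both genes, and mouse 7 had the most metallothionein RNA in both of its tissues. The uninvolved libraries of mice 3 and 6 nearly share their counts, so the values of these mice are not independent. They may not each compare tissues of 1 animal.

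**Figure D3:**
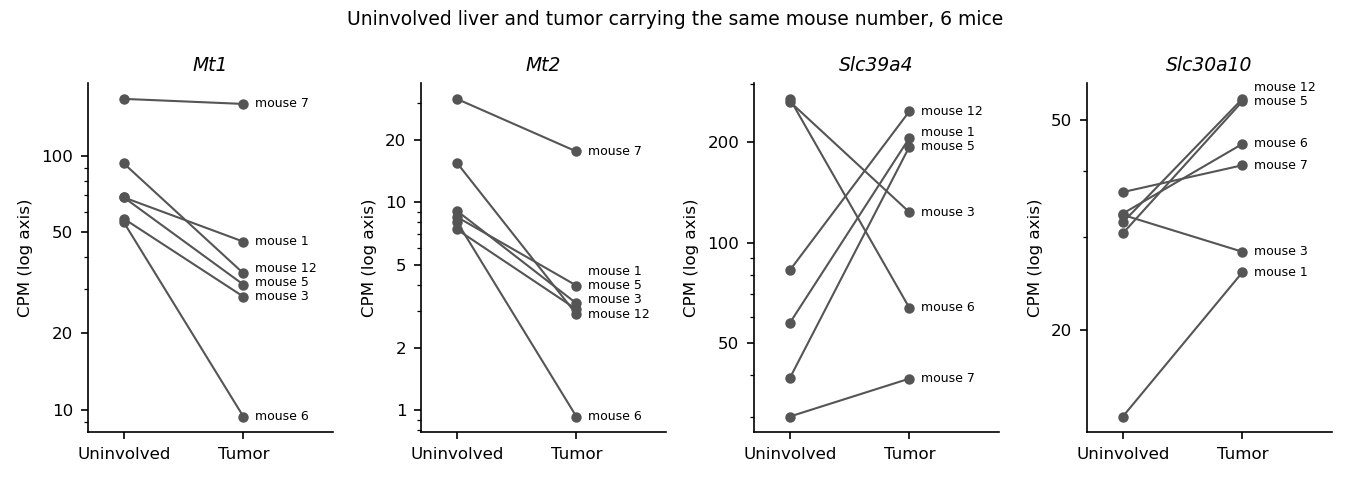
Mt1, Mt2, Slc39a4 and Slc30a10 in uninvolved liver and tumor of the same mouse number (CPM, log axis, scaled among these libraries), 1 line per mouse. Both metallothionein panels slope down in 6 of 6 mice, Slc39a4 rises in 4 and falls in mice 3 and 6, and Slc30a10 rises in 5 of 6. The uninvolved libraries of mice 3 and 6 nearly share their counts, so their lines are not independent.

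Metallothionein levels were lowest in vehicle and low-risk livers of 10 months. The 5-month vehicles were also an arm of the contrast that had named these genes. Differences of these genes from them are therefore descriptions with no test. Among vehicles of the first batch, 5-month against 3-week samples were at 0.36 for Mt1 (SE 0.77) and -0.17 for Mt2 (SE 0.79). From 5 to 10 months the vehicle difference, the one that had named these genes before, was fitted at -5.90 for Mt1 (SE 1.02) and -6.98 for Mt2 (SE 1.19). The ranges overlapped through 5-month vehicle 9, the library with 2.83 M counts. Without it the other batch 1 vehicles of 5 months (Mt1 100.5 to 1434 CPM, Mt2 2.47 to 304.7 CPM) were all above the 10-month vehicles, and the batch 2 vehicle, which was outside this fit, held 10.2 CPM of Mt1 and 0.578 CPM of Mt2.

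The low-risk TBT livers offer samples that this earlier contrast did not use. From 5 to 10 months 0 of 8 genes were called in them (background 0% of 16084 genes), with 3 (Mt1, Mt2 and Mtf1) at an unadjusted p under 0.05 and 2 (Mt1 and Mt2) by DESeq2. Of all 16084 genes, 1553 had an unadjusted p under 0.05. The edgeR values were -4.38 for Mt1 (SE 1.25) and -5.92 for Mt2 (SE 1.55), both with adjusted p = 0.308. The DESeq2 values were -4.42 (adjusted p = 0.0037) and -6.00 (adjusted p = 5.31e-05). In batch 1 alone edgeR gave -3.85 (adjusted p = 0.382) and -4.99 (adjusted p = 0.156). Mt2 had already dropped in low-risk livers of 5 months against TBT livers of 3 weeks, by 2.59 (SE 0.66, adjusted p = 0.0107), with all 6 batch 1 samples below all 8 of 3 weeks, while Mt1 was at -1.93 (adjusted p = 0.0713).

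In high-risk tissue no decline was called. From high-risk liver at 5 months to uninvolved liver at 10 months 0 of 8 genes were called (background 2.05%), with 0 at an unadjusted p under 0.05 (2899 of all 16084 genes) and 0 by DESeq2, and Mt1 was at -1.03 (SE 1.06) and Mt2 at -1.10 (SE 1.12), both with adjusted p = 0.649. The change of the risk difference from 5 to 10 months, tested as an interaction, was 3.34 for Mt1 (SE 1.38, adjusted p = 0.316) and 4.82 for Mt2 (SE 1.68, adjusted p = 0.217). Of the 8 genes 0 were called by that test (background 0.448%), 2 (Mt1 and Mt2) had an unadjusted p under 0.05, and 1 (Mt2, 4.93, adjusted p = 0.027) was called by DESeq2. An unadjusted p under 0.05 was reached by 1945 of all 16084 genes. In batch 1 alone the interaction was 2.10 for Mt1 and 2.92 for Mt2 (adjusted p = 0.652 and 0.451).

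Mt1 and Mt2 moved together from sample to sample. Spearman's rho between them was 0.96 over 72 samples, the highest of Mt1 with any of 9511 genes, and 0.88 for deviations from group means. These points share group and depth, so the value is a description. The ratio of Mt1 to Mt2 CPM was not constant: its median was 5.96 and 6.05 in vehicle and TBT livers of 3 weeks, 16.2, 9.25 and 6.79 in vehicle, low-risk and high-risk livers of 5 months, and 15.9, 19.8, 7.21 and 10.1 in vehicle, low-risk, uninvolved and tumor samples of 10 months. The highest single ratio, 52.0, was in a 5-month vehicle. At 10 months the uninvolved ratios (5.34 to 8.08) did not overlap those of vehicles (12.7 to 19) or low-risk livers (14.8 to 30.8).

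**Figure D4:**
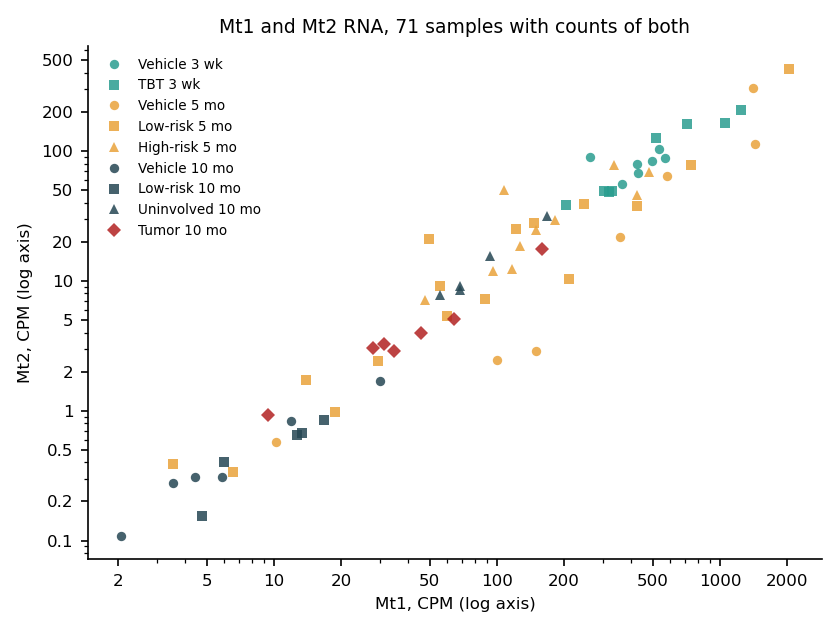
Mt2 against Mt1 (CPM, both axes log) in 71 samples with Mt2 counts, coloured by age with tumors in red. The marker shape separates the groups of an age, and the colours differ from those of the plot of metallothionein levels. The samples follow a band over more than 3 orders of magnitude, with 10-month vehicles and low-risk livers at the lower end and 3-week livers at the upper end.

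Slc39a4 (ENSMUSG00000063354, chr15:76612383-76617384, minus strand) encodes ZIP4, the zinc importer best known from the intestine, where its loss causes zinc deficiency. It was called in 7 of 14 comparisons, more than any other of the 8 genes, and was higher in high-risk, uninvolved and tumor tissue. At 5 months it ran from 28.1 through a median of 94.3 to 176.7 CPM in high-risk livers, from 6.97 through 22.9 to 54.4 CPM in low-risk livers and from 6.80 through 26.8 to 53.7 CPM in vehicles. In 9 of 10 high-risk samples it was above every low-risk and every vehicle sample, and the exception, sample 15, was a library with a high mitochondrial share. Slc39a4 rose by 1.95 against low-risk (SE 0.30, adjusted p = 5.59e-06) and by 1.45 against vehicle (SE 0.40, adjusted p = 0.0137).

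Within batches, the Slc39a4 difference between risk groups was 2.27 in batch 2 (7 against 10 samples, SE 0.33, adjusted p = 9.45e-05) and 1.13 in batch 1 (3 against 6, SE 0.49, adjusted p = 0.21). Against vehicles only batch 1 could give a value, since batch 2 holds 1 vehicle, and it was 0.86 (SE 0.48, adjusted p = 0.475). With no filter on low counts, or fitted with the compared groups alone, the vehicle comparison lost its call (adjusted p = 0.0773 and 0.0647).

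At 10 months the Slc39a4 levels were 30.02, 39.1, 57.3, 82.5 and 268.3 CPM in uninvolved livers and 8.80, 10.2, 13.6, 14.2 and 36.0 CPM in low-risk livers. Vehicles ran from 9.11 through 14.04 to 18.4 CPM and tumors from 39.0 through 193.6 to 335.5 CPM. All 5 uninvolved and all 7 tumor samples were above all vehicles, and 1 low-risk sample reached into the uninvolved range. The gene rose by 2.53 against low-risk (SE 0.56, adjusted p = 0.00185), by 2.79 against vehicle (SE 0.53, adjusted p = 0.000457), and by 3.66 in tumor against vehicle (SE 0.46, adjusted p = 4.96e-05).

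The highest uninvolved value, 268.3 CPM, belongs to the summed libraries 3 and 6, which held 265 and 270.2 CPM singly. Without that sample the differences were 1.67 against low-risk (adjusted p = 0.00299) and 1.92 against vehicle (adjusted p = 0.000664), both still called for Slc39a4. In uninvolved livers its SD of log2(CPM + 1) ranked 20 of 9511 genes, and in tumors 60.

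Tumor against uninvolved liver depended on those same animals. The fitted Slc39a4 difference was 0.86 (SE 0.60, adjusted p = 0.325), and by mouse it was 1.84, 2.31, 0.38 and 1.59 in mice 1, 5, 7 and 12 but -1.10 and -2.08 in mice 3 and 6. Without the summed uninvolved sample 3 and 6 it was 1.71 (adjusted p = 0.0387), and with a mouse block over the other 4 pairs 1.54 (SE 0.28, adjusted p = 0.0205). With the block over all 6 pairs it was 0.55 (SE 0.59, adjusted p = 0.55).

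Slc39a4 also fell after weaning age. The 3-week levels were 56.7 through 72.0 to 81.1 CPM in vehicles and 59.4 through 74.5 to 87.4 CPM in TBT livers, a tight range. By 5 months it had fallen by 1.30 in vehicles (SE 0.26, adjusted p = 0.000864) and by 1.66 in low-risk livers (SE 0.28, adjusted p = 0.000338), with no overlap between the ages in the samples compared. Markers of other cells fell over the same interval in vehicles, 5 of 5 endothelial (0 rose; summed 409.7 to 509.8 CPM at 3 weeks and 185.9 to 393.7 at 5 months), 4 of 6 stellate (0 rose; 629.4 to 1077 and 70.0 to 509.4), 4 of 6 macrophage (0 rose; 343.3 to 592 and 137.3 to 494.9) and 4 of 5 erythroid (1 rose; 432 to 1770 and 93.1 to 763). Other lists did not fall alike in vehicles: 1 of 5 cholangiocyte markers rose and 0 fell, 2 of 5 B and plasma cell markers rose and 1 fell, and 0 of 4 enterocyte markers rose or fell. In low-risk against 3-week TBT livers 5 of 5 endothelial, 3 of 6 stellate and 3 of 6 macrophage markers fell and 0 rose. There 2 of 4 enterocyte, 2 of 5 cholangiocyte and 2 of 5 B and plasma cell markers rose and 0 fell. Of 5 erythroid markers 1 rose and 1 fell, and of 6 hepatocyte markers 1 rose and 2 fell. None of these markers was at 0 in these groups, and their part in the age differences was not tested. High-risk livers of 5 months were not tested against 3-week livers. In these comparisons of age 2 of 8 genes were called among vehicles (0 higher, 2 lower; background 24.2% of 14962 genes) and 4 of 8 among TBT livers (1 higher, 3 lower; background 21.2% of 15970 genes).

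Enterocyte markers were measured because ZIP4 and ZIP5 are intestinal proteins. In uninvolved against low-risk livers 2 of 4 tested rose and 1 fell, with a summed level of 1159 to 1971 CPM against 445.4 to 1367 CPM. The intestinal factors Cdx1 and Cdx2 were at 0 in all uninvolved livers, and Cdx1 also in all vehicle and low-risk livers of 10 months. In high-risk against low-risk livers of 5 months 1 of 4 rose and 0 fell, with sums of 430.7 to 2626 and 145.8 to 1614 CPM. Cholangiocyte markers rose there too, 4 of 5, with sums of 32.8 to 349.6 CPM in high-risk and 27.3 to 220.7 CPM in low-risk livers, and 5 of 6 stellate markers rose and 1 fell (414.5 to 1059 against 182.4 to 371.4 CPM). Hepatocyte markers fell in 4 of 6 and rose in 0 (57200 to 166100 against 80350 to 174800 CPM). In high-risk against vehicle livers 3 of 5 cholangiocyte, 5 of 6 stellate and 2 of 4 enterocyte markers rose and 0 fell, and 5 of 6 hepatocyte markers fell and 0 rose. No cholangiocyte, stellate or hepatocyte marker was at 0. The part of these lists in the 5-month differences of Slc39a4 and of the other transporters was not tested.

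Slc39a14 (ENSMUSG00000022094, chr14:70303469-70351425, minus strand) encodes ZIP14, a hepatocyte importer of zinc, iron and manganese that is induced in the acute-phase response. It was called lower in 5 of 14 comparisons and higher in 0. At 5 months it ran from 127.4 through 166.7 to 216.8 CPM in high-risk livers, from 185.8 through 241.5 to 517.2 CPM in low-risk livers and from 66.3 through 291.1 to 797.4 CPM in vehicles. In 9 of 10 high-risk samples it was below all low-risk samples by TMM. Scaled to library totals, only sample 17 (148.2 CPM) was below the lowest low-risk sample (164 CPM). Slc39a14 fell by 0.78 against low-risk (SE 0.23, adjusted p = 0.00708) and by 0.90 against vehicle (SE 0.29, adjusted p = 0.0317). In the same comparisons 4 of 6 and 5 of 6 hepatocyte markers fell and 0 rose, with list medians of -0.73 and -0.69. Their part in the Slc39a14 differences was not tested.

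The batches gave -0.95 (adjusted p = 0.00138, batch 2) and -0.52 (adjusted p = 0.602, batch 1) for Slc39a14 between the risk groups, and -0.88 in batch 1 against vehicle (adjusted p = 0.465). The vehicle comparison lost its call without vehicle 5, the highest at 797.4 CPM (-0.62, adjusted p = 0.121). Scaled to library totals, the difference between risk groups was -0.46 (adjusted p = 0.0805).

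At 10 months the Slc39a14 differences were small. Uninvolved livers held 131.5, 137.7, 152.7, 166.8 and 223.4 CPM and low-risk livers 184, 212.5, 213.9, 234.1 and 254.1 CPM, so that 4 of 5 uninvolved samples were below all low-risk samples by TMM. Scaled to library totals, only uninvolved sample 5 (154.7 CPM) and the summed sample 3 and 6 (163.3 CPM) were below the lowest low-risk sample (164.7 CPM). The gene fell by 0.45 against low-risk (SE 0.14, adjusted p = 0.0108), by 0.36 against vehicle (SE 0.13, adjusted p = 0.0247) and by 0.36 in tumor against vehicle (SE 0.10, adjusted p = 0.0101). None of these 3 was called with library totals (-0.22, -0.06 and -0.07), and the uninvolved to vehicle call was lost without uninvolved sample 1 (adjusted p = 0.0832) or 5 (adjusted p = 0.072).

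Slc39a5 (ENSMUSG00000039878, chr10:128395931-128401229, minus strand) encodes ZIP5, found on the basolateral face of enterocytes and in pancreatic acinar cells. Per length, its RNA was the scarcest of the 3 importers in 3-week and in 10-month vehicles. Its level was 3.84 through 6.58 to 17.6 CPM in 3-week vehicles and 0.787 through 1.44 to 1.82 CPM in 5-month vehicles, with no overlap. It fell by 2.46 from 3 weeks to 5 months in vehicles (SE 0.29, adjusted p = 2.19e-06). In low-risk livers of 5 months it fell by 1.747 against TBT livers of 3 weeks (SE 0.54, adjusted p = 0.0271).

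The other call of Slc39a5 was lost in 9 of 17 alternative settings. Uninvolved livers held 0.971, 1.04, 1.37, 2.39 and 6.00 CPM and low-risk livers 0.677, 0.721, 0.972, 1.08 and 2.06 CPM, with 1.09 (SE 0.45, adjusted p = 0.0492). Without the summed sample 3 and 6, which held the 6.00 CPM, the difference was 0.37 (adjusted p = 0.352), and leaving out uninvolved sample 12 or low-risk sample 2, 4, 8 or 9 also ended the call (adjusted p between 0.0637 and 0.11), as did no filter (0.0953), a fit of only the groups compared (0.104) and the vehicle tumor library among the vehicles (0.0618). At 5 months the batches disagreed in sign for high-risk against low-risk livers, with -1.70 in batch 1 (adjusted p = 0.282) and 1.72 in batch 2 (adjusted p = 0.0319), and the joint value of 0.93 was not called (adjusted p = 0.192). Of 6 acinar markers 1 passed the filter in 5-month against 3-week vehicles, and it fell, by 2.80 (summed level of the 6 markers 1.63 to 23.8 CPM at 3 weeks and 0.107 to 36.7 CPM at 5 months, none at 0 in all samples). Its part in the fall of Slc39a5 was not tested. Within an age at most 1 of the 6 was tested in any comparison.

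**Figure D5:**
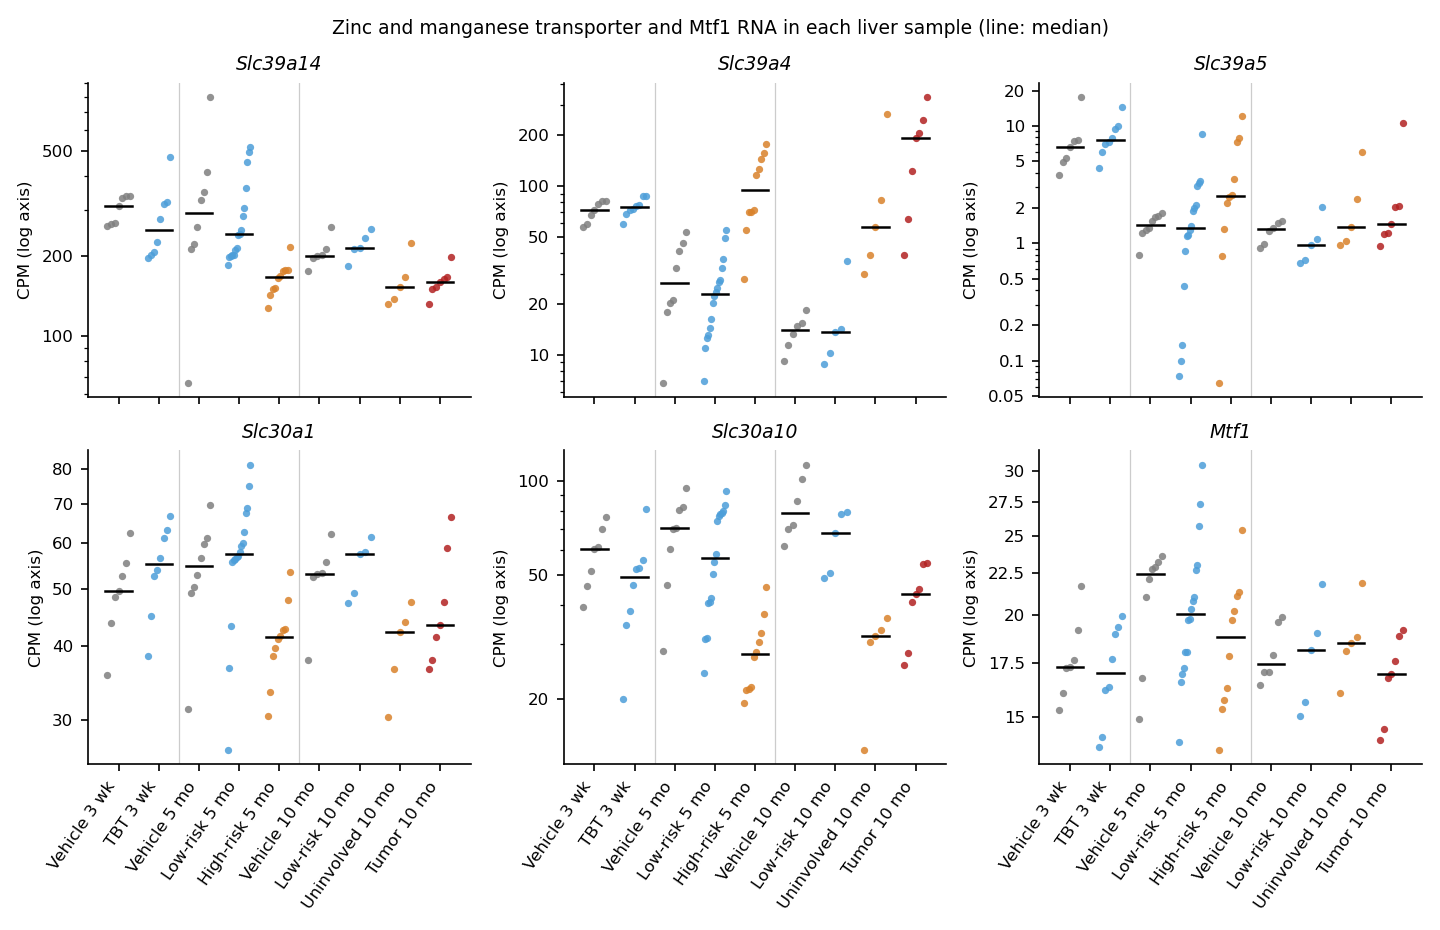
Slc39a14, Slc39a4, Slc39a5, Slc30a1, Slc30a10 and Mtf1 RNA (TMM-scaled CPM, log axes of different range) in each sample, coloured as in the plot of metallothionein levels, with medians as black lines. Slc39a4 is high in high-risk, uninvolved and tumor samples, Slc30a10 is low in them, and the Mtf1 medians stay between 16.97 and 22.5 CPM.

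Slc30a10 (ENSMUSG00000026614, chr1:185454848-185468762, plus strand) encodes ZnT10, which exports manganese from hepatocytes into bile. Its RNA was lower in the comparisons in which Slc39a4 was higher. At 5 months it ran from 19.4 through 27.8 to 45.8 CPM in high-risk livers, from 24.2 through 56.6 to 93.2 CPM in low-risk livers and from 28.6 through 70.5 to 95.1 CPM in vehicles. The groups overlapped, with 4 of 10 high-risk samples below all low-risk and 6 of 10 below all vehicle samples by TMM. Scaled to library totals, the lowest high-risk sample was not below the lowest low-risk sample (21.43 beside 21.38 CPM). Fewer high-risk samples were then below all vehicle samples (lowest 29.66 CPM). Slc30a10 fell by 1.05 against low-risk (SE 0.19, adjusted p = 4.31e-05) and by 1.43 against vehicle (SE 0.24, adjusted p = 0.000271).

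The sizes were alike in both batches, at -0.97 in batch 1 (adjusted p = 0.121) and -1.12 in batch 2 (adjusted p = 0.000694) for Slc30a10 between risk groups, and at -1.47 in batch 1 against vehicle (adjusted p = 0.0917). At 10 months uninvolved livers held 13.7, 30.4, 32.0, 33.3 and 36.5 CPM and low-risk livers 49.1, 50.8, 68.0, 78.4 and 79.8 CPM. Vehicles ran from 62.0 through 79.3 to 113.1 CPM and tumors from 25.7 through 43.4 to 54.7 CPM. Neither uninvolved nor tumor samples overlapped the vehicles by TMM. Scaled to library totals, uninvolved samples still did not, but tumors (29.04 to 64.13 CPM) overlapped the vehicles (55.99 to 104.3 CPM).

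Slc30a10 fell by 1.18 in uninvolved against low-risk livers (SE 0.23, adjusted p = 0.000551), by 1.54 against vehicle (SE 0.23, adjusted p = 2.84e-05) and by 1.001 in tumor against vehicle (SE 0.19, adjusted p = 0.000693). Between tumor and uninvolved liver it was 0.50 (SE 0.24, adjusted p = 0.152). The tumor was the higher side in 5 of 6 mice, and the blocked value was 0.48 over all 6 pairs (SE 0.15, adjusted p = 0.0622) and 0.67 over the 4 pairs without mice 3 and 6 (SE 0.14, adjusted p = 0.0233). With library totals in place of TMM the gene kept all 5 of its calls.

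Slc30a1 (ENSMUSG00000037434, chr1:191906767-191913247, plus strand) encodes ZnT1, the zinc exporter of the plasma membrane and a classic MTF-1 target. Its medians lay between 41.5 and 57.5 CPM in all 9 groups. It was lowest in high-risk livers of 5 months (30.5 through 41.5 to 53.5 CPM), beside 26.6 through 57.5 to 81.6 CPM in low-risk livers, and fell by 0.46 (SE 0.12, adjusted p = 0.00256). The batches gave -0.52 (adjusted p = 0.235) and -0.47 (adjusted p = 0.0168).

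In uninvolved livers of 10 months Slc30a1 held 30.3, 36.7, 42.3, 44.0 and 47.6 CPM, and in low-risk livers 47.4, 49.2, 57.4, 57.8 and 61.4 CPM, with 4 of 5 uninvolved samples below all low-risk ones by TMM. Scaled to library totals, only uninvolved samples 1 (38.26 CPM) and 5 (41.18 CPM) were below the lowest low-risk sample (44.08 CPM). The fold changes that follow are by TMM unless stated. It fell by 0.46 against low-risk (SE 0.13, adjusted p = 0.00714) and by 0.40 against vehicle (SE 0.12, adjusted p = 0.0121). With library totals all 3 calls were lost (-0.16, -0.23 and -0.09). Against low-risk livers Mt1 and Mt2 were called higher under both scalings.

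Mtf1 (ENSMUSG00000028890, chr4:124802104-124849800, plus strand) had medians between 16.97 and 22.5 CPM in all 9 groups. It was called once, in low-risk livers of 5 months against TBT livers of 3 weeks (0.45, SE 0.14, adjusted p = 0.0267), and that call was lost without TBT sample 4 of 3 weeks (0.41, adjusted p = 0.0548). In 5-month against 3-week vehicles it was at 0.24 (SE 0.09, adjusted p = 0.065), called by DESeq2 (adjusted p = 0.0265). At 10 months the uninvolved values of 16.1, 18.1, 18.5, 18.8 and 21.9 CPM overlapped the low-risk values of 15.1, 15.7, 18.2, 19.04 and 21.9 CPM. The fitted Mtf1 difference was 0.04 (SE 0.11, adjusted p = 0.74) against low-risk and 0.04 (SE 0.10, adjusted p = 0.732) against vehicle. With library totals these became 0.29 (adjusted p = 0.0241) and 0.35 (adjusted p = 0.00448), close to the shift of all genes under that scaling.

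Sorted by median, neighbouring groups overlapped in range for every gene, with the exception of Mt2 between tumors and low-risk livers of 10 months. Mt1 went from 427.9 CPM in 3-week vehicles down to 5.13 CPM in 10-month vehicles. Slc39a4 went from 193.6 CPM in tumors through 94.3 in high-risk livers, 74.5 and 72.0 in 3-week TBT and vehicle livers, 57.3 in uninvolved, 26.8 and 22.9 in 5-month vehicle and low-risk livers to 14.04 and 13.6 in 10-month vehicle and low-risk livers. Slc30a10 ran nearly the other way, from 79.3 CPM in 10-month vehicles to 27.8 CPM in 5-month high-risk livers.

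The other transporters of both families came from lists of 14 ZIP and 10 ZnT genes, counted here without the members. In uninvolved against low-risk livers 3 of 10 tested ZIP genes rose and 3 fell by TMM, and 4 rose and 2 fell with library totals. Of 6 tested ZnT genes 0 rose and 3 fell by TMM, and 0 rose and 1 fell with library totals. The list medians went from -0.16 to 0.08 (ZIP) and from -0.43 to -0.18 (ZnT), beside 0.05 for all genes by TMM. Slc39a13, which serves the secretory pathway, was at 0.50 (SE 0.09, adjusted p = 0.00014) by TMM and at 0.75 with totals. Slc39a8, a close relative of Slc39a14, was at -0.46 (SE 0.08, adjusted p = 2e-04) and -0.22. Of the ZnT genes, Slc30a5 of the Golgi was at -0.49 (SE 0.10, adjusted p = 0.000848) and -0.25, and Slc30a4 of vesicles at -0.72 (SE 0.16, adjusted p = 0.0014) and -0.46, the latter not called (adjusted p = 0.0548).

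Elsewhere the direction of these other transporters depended on the scaling. In high-risk against low-risk livers of 5 months 0 of 9 ZIP genes rose and 1 fell by TMM, but 4 rose and 0 fell with library totals, and 0 of 6 ZnT genes rose and 2 fell by TMM, but 3 rose and 0 fell with totals. In uninvolved against vehicle livers 2 of 10 ZIP genes rose and 3 fell by TMM (3 and 0 with totals), and 0 of 6 ZnT genes rose and 3 fell (1 and 0 with totals). In tumors against vehicles 2 of 10 ZIP genes rose and 3 fell (5 and 1 with totals), and 0 of 5 ZnT genes rose and 1 fell (3 and 0 with totals). At 5 months Slc30a5 was at -0.59 (SE 0.16, adjusted p = 0.00356) by TMM and -0.28 (adjusted p = 0.13) with totals, and Slc39a8 at -0.42 (SE 0.09, adjusted p = 0.000516) and -0.12 (adjusted p = 0.31).

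Of 14 tested genes for copper and manganese, 2 rose and 8 fell in uninvolved against low-risk livers by TMM, beside 4520 higher and 4041 lower of 16338 genes. With library totals 3 rose and 4 fell. The smallest adjusted p values by TMM were those of Atp2c1, a Golgi calcium and manganese pump (-0.48, SE 0.07, adjusted p = 2.39e-05; -0.23 with totals), and of the copper transporters Slc31a1 (-0.52, SE 0.09, adjusted p = 0.00017; -0.28 with totals) and Slc31a2 (-0.47, SE 0.09, adjusted p = 0.000306; -0.22 with totals, not called). In the metallothionein list, Mt3 and Mt4 were not tested for want of counts.

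Lists of other known inducers of metallothionein were counted beside these results. Of 15 acute-phase genes, 12 rose and 0 fell in 5-month against 3-week vehicles, led by Orm1 (3.35, SE 0.48, adjusted p = 2.59e-05), while in uninvolved livers 2 rose and 1 fell against low-risk and 7 rose and 0 fell against vehicle livers, and in tumors 7 rose and 1 fell against vehicles. Of 14 glucocorticoid and fasting genes, 6 rose and 1 fell in uninvolved against low-risk livers, 6 rose and 0 fell in high-risk against low-risk livers of 5 months, and 0 rose and 7 fell in 5-month against 3-week vehicles. Of 10 targets of the oxidative-stress factor NRF2, 5 rose and 0 fell in uninvolved against low-risk livers. In high-risk against low-risk livers of 5 months 7 rose and 0 fell, among them Gstm3 (3.48, SE 0.41, adjusted p = 1.68e-07). NRF2 targets also rose in tumors, 7 and 0 lower against vehicles, and 5 and 0 lower against uninvolved liver. In that last comparison Mt1 and Mt2 were fitted lower but not called. There the acute-phase list gave 0 higher and 1 lower, and the glucocorticoid and fasting list 0 and 0. Of all genes, 52.4% were called in uninvolved against low-risk, 57.7% in uninvolved against vehicle and 45.9% in tumor against vehicle. The share was 18.1% in tumor against uninvolved, 38.9% between the risk groups of 5 months and 24.2% in 5-month against 3-week vehicles. The part of these lists in the metallothionein levels was not tested.

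The genes whose levels ran most alike to each member were named by Spearman's rho over 72 samples, as a description in which samples share group, batch and depth. For Mt1 the nearest apart from Mt2 were Lbp (0.76), Cyp17a1 (0.75) and Sf3b3 (0.74), and on deviations from group means Cyp3a13 (0.74), Serpina3n (0.68) and Hpx (0.66). For Mt2 they were Lyve1 (0.79), Pdlim1 (0.75) and Myadm (0.74), and on deviations Cyp3a13 (0.77), Serpina3n (0.68) and Lbp (0.64). Slc39a4 ran closest to Sirpa (0.88), Ctps2 (0.88) and Mfge8 (0.88), and on deviations to Galns (0.69), Aldh1b1 (0.67) and Ifi27l2b (0.65).

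For Slc39a14 the nearest were Hs3st3b1 (0.80), Pfkfb1 (0.77) and B4galt1 (0.76), and on deviations the zinc transporter Slc30a5 led (0.69). For Slc30a10 they were Cyb5b (0.80), Leap2 (0.79) and Slc44a1 (0.79), for Slc30a1 Zfp768 (0.67), Igfbp4 (0.64) and Pex26 (0.63), for Slc39a5 Mcm3 (0.75), Hist1h3e (0.73) and Cyp3a44 (0.72), and for Mtf1 Egfr (0.70), Il6st (0.66) and Prox1 (0.59). Outside the Mt1 and Mt2 pair, the highest rho between any of the 8 genes was 0.50, for Slc39a4 with Slc39a5, which ranked 317 among the genes nearest to Slc39a5.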

How the data were processed

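The authors deposited 1 table of whole-number counts per gene for 75 liver libraries. Per the submitters' processing notes, Trim Galore, HISAT2, featureCounts and the mm10 genome were used, and per the file name the counts were adjusted between batches with ComBat-seq, which can change both levels and spread at 5 months. Versions, strand setting and batch settings are not given in the sources used here. The deposited counts were used as they are, except that a pair of libraries of 1 3-week vehicle mouse, and uninvolved libraries 3 and 6, were summed, leaving 73 samples. A single library with the label of a vehicle tumor was kept out of the comparisons. Library totals of 2.83 to 45.4 M counts limit the precision of low genes, above all Mt2 and Slc39a5.

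Tests were quasi-likelihood F tests of edgeR 4.0.16 (R 4.3.3), fitted robustly after filterByExpr and TMM scaling, with Benjamini-Hochberg adjustment over all genes tested and calls at 0.05. One fit held the non-tumor groups of each age, and the 5-month fit had the batch as a term. Each tumor comparison had its own fit with its reference group, and ages were compared in batch 1 samples or with a batch covariate. CPM are scaled by TMM, and the SE is the one implied by the F statistic. The steps were tested on simulated data. Alternatives were DESeq2 1.42.0, RLE factors, library totals, no filter, other groups in the fit, single batches, mouse blocks and left-out samples.

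The 8 members, the gene lists and marker lists, and the vehicle contrast of 10 against 5 months were chosen with earlier results of these data known. All 8 members are described. From each list, up to 3 called genes per comparison with the smallest adjusted p and a mean of at least 1 CPM could be named, and per member the 3 genes with the nearest pattern (mean of at least 5 CPM). The Tf symbol of the hepatocyte list did not match, leaving 6 genes. Lists of macrophage, endothelial, B and plasma cell and erythroid markers were also counted. In uninvolved against low-risk livers they gave 1 higher and 4 lower of 6, 2 and 1 of 5, 1 and 0 of 5, and 0 and 1 of 5.

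Sample titles give 6 tumors and 6 uninvolved livers the same full animal code, while low-risk TBT livers of 10 months carry other numbers. The code was taken as the mouse, which the labels do not state. Deviations from group means correlated across genes at 0.00, -0.07, -0.02, -0.16, 0.50 and 0.07 for mice 1, 3, 5, 6, 7 and 12. Title numbers 1 to 7 shared by 3-week TBT and vehicle livers, whose full codes differ, gave 0.27, 0.24, -0.10, 0.0004, 0.07, 0.06 and 0.18. With the exception of mouse 7, the tumor pairs were no higher than this range, so the check does not bear out the pairing by mouse. Gene positions are from GENCODE M21 (GRCm38), and promoter sequences from RefSeq (GRCm38.p6).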

Additional observations from a re-analysis of the deposited data

Results flagged for a closer look

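A sample far from the rest of its group was found in 4 of the 64 combinations of gene and group examined, near the 1 in 20 that chance gives. Only groups of 4 to 10 samples were examined, so the 16 low-risk livers of 5 months were not. Slc39a5 in tumor 12 (10.7 CPM) stood above the other tumors, whose next value was 2.09 CPM. Slc30a1 was low in 5-month vehicle 9 (31.3 CPM), the library with 2.83 M counts, and in 10-month vehicle 2 (38.0 CPM, beside 52.4 to 62.1 CPM in the other vehicles). Slc30a10 was low in uninvolved liver 1 (13.7 CPM, beside 30.4 to 36.5 CPM in the others).

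The vehicle library labelled as a tumor, which entered no comparison, held more Mt2 (11.7 CPM), Slc39a4 (83.3 CPM) and Mtf1 (24.8 CPM) than any of the 6 other 10-month vehicles, whose highest values were 1.69, 18.4 and 19.9 CPM. It is 1 library with 14.1% mitochondrial counts, so no test was possible.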

How the results depend on the processing

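Over 112 member results and all alternatives, 2276 of 2344 values kept their side of the threshold (74 of them uncalled with another sign), 40 lost a call, 28 gained one and 0 called values changed sign. Counts of members called moved beyond 1.5 times in 13 of 293 settings. High-risk against low-risk at 5 months had 4, with 2 by library totals and 0 in batch 1 alone. High-risk against vehicle had 3, with 1 without a filter, 1 with only the groups compared and 0 in batch 1. Tumor against uninvolved had 0, with 2 under the replicate block of 6 pairs, 5 under that of 4 pairs, 1 without uninvolved sample 3 and 6, and 0 to 2 when single samples were left out (2 without tumor 7). Tumor against vehicle had 5, and 3 once the vehicle tumor library was counted as a vehicle, where Mt2 was 1.31. Low-risk livers of 5 months against 3-week TBT had 4, and 2 without a filter. Low-risk 10 against 5 months had 0 and the interaction 0, with 2 and 1 by DESeq2. Libraries beyond technical limits moved no count by that much. At 3 weeks the vehicle and TBT codes differ, so title numbers were not taken as pairs. The replicate block on them gave 0 calls (Mt1 0.24, adjusted p = 0.999). Counts over all genes moved most at 5 months, from 5745 to 773 (batch 1) and from 2341 to between 0 (batch 1) and 4947 (library totals). Tumor against uninvolved went from 2961 to between 1580 and 5346, uninvolved against vehicle from 9427 to 6019, tumor against vehicle from 7016 to 4206, 5-month against 3-week vehicles from 3616 to between 2172 and 5790, uninvolved against high-risk from 329 to between 99 and 852, and the interaction from 72 to between 4 and 231. From 0, TBT against vehicle reached 3 at 3 weeks, low-risk against vehicle 52 at 5 months and 1 at 10 months, and low-risk 10 against 5 months 27. Library totals, the 4 pairs, batch 1 for TBT ages, the labelled tumor among vehicles of other ages, and 5-month samples left out were chosen after seeing the data. Depth limits Mt2 in 10-month vehicles (3 to 40 counts) and Slc39a5 throughout.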
